A study of Drosophila melanogaster with 44 samples.

Results

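Adult females of Drosophila melanogaster that carried the deletion Df(2L)ED4559/+ and a partner deletion were compared with females that carried Df(2L)ED3/+ and the same partner. The arrays were chosen by the genotype in their labels and paired by partner, which gave 5 arrays against 5, or 10 of the 44 arrays of the series. On each side the partners were Df(3R)ED10953/+, Df(2R)ED1770/+, Df(2R)ED1612/+, Df(3R)ED5071/+ and Df(3R)ED7665/+, and the deletions are called below by their ED names. Each double heterozygote was measured on 1 Affymetrix array, from total RNA of 15 pooled whole females aged 0-24 h and reared at 25 °C. Every fly of the comparison therefore had 1 copy of 2 chromosome segments, and the flies on the 2 sides of a pair shared the partner segment and differed in the segment on arm 2L. The labels do not give the stock background beyond the deletions, nor whether 2 deletions of the second chromosome lay on the same or on opposite homologs. The question was which of 7424 measured genes outside both 2L intervals differed with the segment that was lost. These include tested genes of the partner segments, which had 1 copy on both sides of the pair with that partner.

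A deletion of this kind removes a run of neighbouring genes, and a heterozygous fly keeps 1 copy of each of them, a state called segmental haploidy. The RNA of such genes is usually lower than in flies with both copies, while genes elsewhere keep both copies. The ED4559 segment holds, among others, the fatty acid synthase genes FASN1 and FASN2, the splicing factor gene Sf3b2, the BMP signal transducer Mad, and ND-B14.5B and ND-PDSW, subunits of respiratory complex I. The ED3 segment holds, among others, the zinc finger gene noc, the ubiquitin ligase scaffold Cul3, the elongation factor gene TfIIS and CIAPIN1, which acts in iron-sulfur cluster assembly.

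The series comprised 6 wild-type arrays, 19 arrays with a single deletion (3 of ED4559 and 3 of ED3) and 19 doubles. Values are log2 expression on the scale of RMA, a method that corrects background, normalises arrays to each other and summarises the probes of a probe set, so a difference of 1 is 2-fold. The medians of the tested genes lay between 8.34 and 8.45 in 9 of the 10 arrays and at 8.16 in ED4559 with ED1770. The median difference over all tested genes, ED4559 minus ED3, was -0.08, and in the pairs with ED10953, ED1770, ED1612, ED5071 and ED7665 it was -0.06, -0.27, 0.04, -0.06 and 0.01. The eggshell gene Cp15, made by late follicle cells of the ovary, stood at 13.81 in ED3 with ED1770 and at 12.83 in ED3 with ED5071, and between 4.21 and 4.90 in the other 8 arrays. In RNA of whole flies fewer cells of a type and less RNA per cell cannot be told apart. In the array names of the labels each ED3 array has a higher number than its ED4559 match, so array order and deletion cannot be told apart within a pair. The number of arrays limits the precision.

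The genes of both segments checked the labels. Their ends were mapped on wild-type and single-deletion arrays, without the 10 doubles, as Ccdc85 to Pgant4 for ED4559 (39 tested genes) and noc to CG15263 for ED3 (22 tested genes). The median level of the ED4559 genes in the 5 ED4559 doubles, relative to the 5 ED3 doubles, was -0.91, -1.15, -0.73, -0.98 and -0.75 with ED10953, ED1770, ED1612, ED5071 and ED7665. Their mean was -0.91 ± 0.17 (SD, n = 5), or 53.4% of the level with 2 copies. The ED3 genes stood at -0.75, -0.75, -0.66, -0.91 and -0.75 in the ED3 doubles in the same order. Their mean was -0.76 ± 0.09 (SD, n = 5), or 58.9%. All 10 arrays had the low level for the segment in their label, and the other segment lay between -0.02 and 0.02 (ED4559 genes) or -0.14 and 0.13 (ED3 genes), without overlap. The arrays with 2 copies are themselves the reference, so their values centre near 0 by construction.

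**Figure D1:**
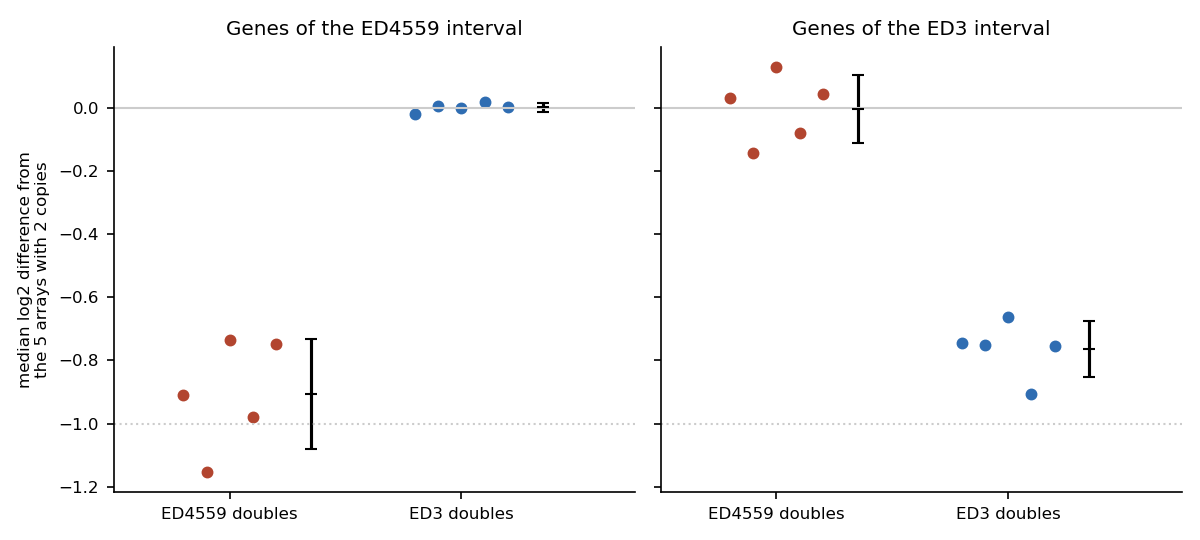
Median log2 difference of the genes of the ED4559 interval (left) and the ED3 interval (right) from the 5 arrays with 2 copies, 1 point for each double heterozygote, with mean and SD (n = 5) beside the points. The dotted line marks -1, the level of a 2-fold difference; carriers lie between -1.15 and -0.66 and arrays with 2 copies between -0.14 and 0.13.

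Within the segments the genes differed in how low they lay. Of the 39 ED4559 genes, 37 were lower in all 5 pairs and 36 had no overlap between the groups, with differences from -1.39 for the helicase gene Pif1 to -0.16 for CG17264. The Mad RNA stood at 7.93 ± 0.32 (SD, n = 5) against 9.16 ± 0.19 in ED3 doubles, a difference of -1.22. Sf3b2 differed by -1.05 and FASN2 by -0.98, while the highly expressed FASN1 differed by -0.57, from 12.64 ± 0.24 to 12.06 ± 0.20 (SD, n = 5). Both complex I genes also lay at the shallow end, with -0.45 for ND-B14.5B and -0.51 for ND-PDSW, or 73.2% and 70.0% of the 2-copy level. The first and last genes, Ccdc85 and Pgant4, differed by -0.92 and -0.90.

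Of the 22 ED3 genes, 18 were lower in all 5 pairs and 14 had no overlap. UK114, of the family of imine deaminases, differed by -1.22, Cul3 by -0.91 and TfIIS by -0.78, each without overlap. The end genes noc and CG15263 differed by -0.37 and -0.46 and overlapped, and CG4168 had the smallest difference at -0.21.

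Outside both intervals 8 of 7424 genes differed between ED4559 and ED3 doubles (limma with the partner as a block, Benjamini-Hochberg adjusted p under 0.05), or 0.108% of those tested. The genes CG3819, CG8539, hpRNA:CR33940 and Cftr were higher in ED4559 doubles (4 genes, 0.0539%), and CG18179, CG4835, Cht8 and CG31077 were lower (4 genes, 0.0539%). An unadjusted p under 0.05 was reached by 1078 genes (14.5%), 282 of them higher and 796 lower. That split depended on the scaling: with each array centred on its median it was 763 higher and 404 lower, and after quantile normalisation 660 and 490, while the called genes were 6 higher and 3 lower, and 5 and 3. The p-values treat the arrays as independent samples of flies, and each genotype has 1 array.

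CG3819, of the family of non-specific DNA/RNA endonucleases, had the largest positive difference of all genes tested. It stood at 9.94, 9.11, 9.52, 10.65 and 9.76 in ED4559 doubles with ED10953, ED1770, ED1612, ED5071 and ED7665. In ED3 doubles it stood at 6.24, 5.98, 5.64, 6.77 and 6.58 in the same order. Every ED4559 array lay above every ED3 array, and the 5 pair differences ran from 3.13 to 3.88. The mean difference was 3.55 ± 0.14 (SE), or 11.7-fold, with adjusted p = 1.35e-05 (limma).

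CG8539, of the metallocarboxypeptidase family, stood at 8.29, 8.23, 8.90, 7.98 and 8.12 in ED4559 doubles and at 6.66, 5.67, 6.37, 5.79 and 6.05 in ED3 doubles, in that order of partners. The groups did not overlap, and the difference was 2.20 ± 0.15 (SE; 4.58-fold; adjusted p = 5.45e-04, limma). The hairpin RNA gene hpRNA:CR33940, whose folded transcript is a source of endogenous small interfering RNAs, stood at 8.40, 7.73, 7.83, 7.79 and 7.72 against 6.19, 6.28, 5.96, 5.94 and 5.83. Again all ED4559 arrays lay above all ED3 arrays, by 1.86 ± 0.13 on average (SE; 3.62-fold; adjusted p = 5.45e-04, limma). Both calls held when any 1 pair was left out, as did that of CG3819.

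Cftr, the fly relative of the human CFTR chloride channel, stood at 8.81, 8.89, 9.18, 8.71 and 9.22 in ED4559 doubles and at 8.05, 7.66, 8.17, 7.97 and 8.18 in ED3 doubles. The groups lay apart, and the difference was 0.96 ± 0.10 (SE; 1.94-fold; adjusted p = 0.00966, limma). The call was lost without the ED1770 pair (adjusted p = 0.0573, limma) or without the ED7665 pair (0.0609), with differences of 0.89 and 0.94.

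Among the genes lower in ED4559 doubles, CG18179, a serine protease gene of the trypsin type, stood at 7.83, 8.72, 9.18, 7.54 and 8.42 against 9.50, 10.24, 10.03, 9.51 and 9.77. It fell by 1.47 ± 0.15 (SE; 2.77-fold lower; adjusted p = 0.00902, limma) without overlap, and lost the call without the ED1770 pair (0.0945). Its neighbour on arm 3L, CG18180, of the same type, did not pass at -1.12 ± 0.17 (SE; adjusted p = 0.0777, limma). The chitinase gene Cht8 stood at 7.98, 8.35, 7.97, 8.83 and 8.20 in ED4559 doubles and at 9.53, 9.44, 8.90, 9.94 and 8.98 in ED3 doubles. It fell by 1.09 ± 0.12 (SE; 2.13-fold lower; adjusted p = 0.00966, limma), the groups did not overlap, and the call was lost without the ED1770 pair (0.102).

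CG31077 stood at 7.77, 8.14, 7.84, 8.45 and 8.06 against 8.53, 8.95, 8.62, 9.14 and 8.88. It fell by 0.77 ± 0.08 (SE; 1.71-fold lower; adjusted p = 0.00966, limma) without overlap, and lost the call without the ED10953, ED1770 or ED7665 pair (0.0942, 0.0573 and 0.0609). CG4835 stood at 5.85, 5.85, 5.56, 7.21 and 6.93 against 7.07, 6.78, 7.63, 8.12 and 8.23. It was lower in all 5 pairs, by 1.28 ± 0.18 on average (SE; adjusted p = 0.0479, limma), but ED4559 with ED5071 and with ED7665 lay above 1 or more ED3 arrays. This call is the least firm of the 8, since it held without the ED1612 pair and was lost without any other pair (adjusted p from 0.0536 to 0.182). Without overlap between groups were 7 of the 8 called genes and 119 of all genes tested (1.60%).

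**Figure D2:**
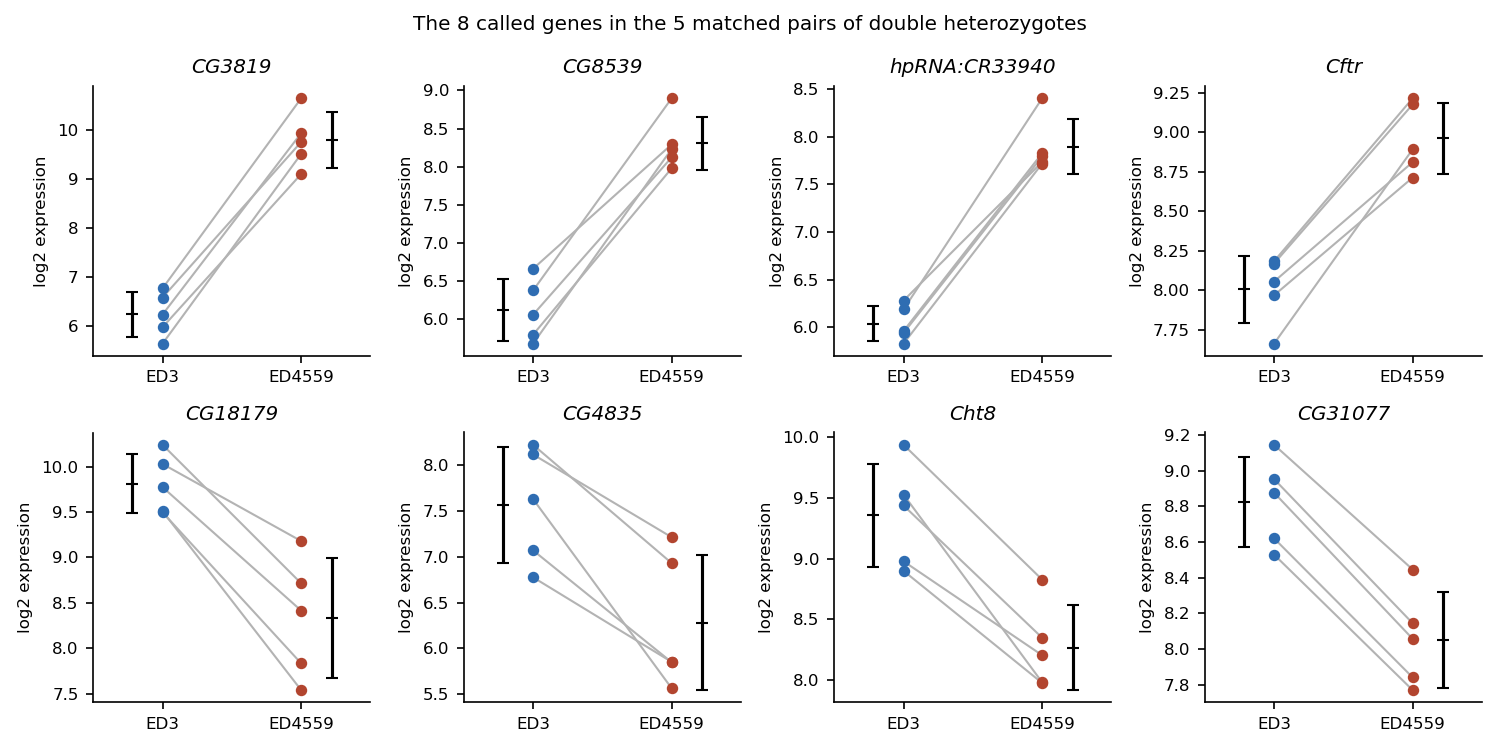
Log2 expression of the 8 genes called outside both intervals in the 5 ED3 doubles (blue) and the 5 ED4559 doubles (red), with lines joining arrays that share a partner deletion and mean with SD (n = 5) beside the points. All 5 lines of each gene run the same way, and the groups overlap only for CG4835.

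The chorion gene Cp15 of the ovary was high in 2 of the ED3 arrays, as given above, but other chorion genes did not all follow it. Cp36 and Cp18 stood at 12.23 and 9.59 in ED3 with ED5071, and at 5.56 and 8.68 in ED3 with ED1770. Without the ED1770 and ED5071 pairs the fit called 4 genes, CG3819, CG8539 and hpRNA:CR33940 among them. In that setting, chosen after the data were seen, the differences were 0.93 for Cftr (adjusted p = 0.0692, limma), -1.29 for CG18179 (0.0748), -1.08 for Cht8 (0.124), -0.79 for CG31077 (0.0725) and -1.53 for CG4835 (0.0725). With the germline list as a covariate 11 genes were called. The part of the ovary in these calls was not tested beyond these fits.

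The singles gave the same contrast in arrays that the doubles do not use, 3 of Df(2L)ED4559/+ against 3 of Df(2L)ED3/+. No gene passed there in limma (0 of 7424, 0.00%), with 92 genes (1.24%) at an unadjusted p under 0.05. All 8 called genes differed in the same direction as in doubles, and 7 of them, all but Cht8, were among those with an unadjusted p under 0.05. In 6 of the 8 the 3 arrays of each deletion did not overlap, as in 353 of all genes tested (4.75%). The contrast of doubles minus singles called no gene either (0.00%; 63 genes, 0.849%, at an unadjusted p under 0.05, limma), and for CG3819 it was 0.31 ± 0.96 (SE) and for Cftr 0.13 ± 0.17.

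CG3819 stood at 10.59, 10.42 and 10.27 in the ED4559 singles and at 5.33, 9.53 and 6.69 in the ED3 singles. ED3 single replicate 2 was thus below the ED4559 singles but within the range of the ED4559 doubles. The same array stood at 7.67 for hpRNA:CR33940, against 5.98 and 6.08 in the other ED3 singles and 8.07, 8.61 and 7.57 in the ED4559 singles, so that this gene did overlap. Cftr stood at 8.96, 8.85 and 9.16 against 8.07, 8.07 and 8.34, and CG8539 at 7.99, 8.76 and 7.21 against 5.86, 6.25 and 5.54, both without overlap.

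**Figure D3:**
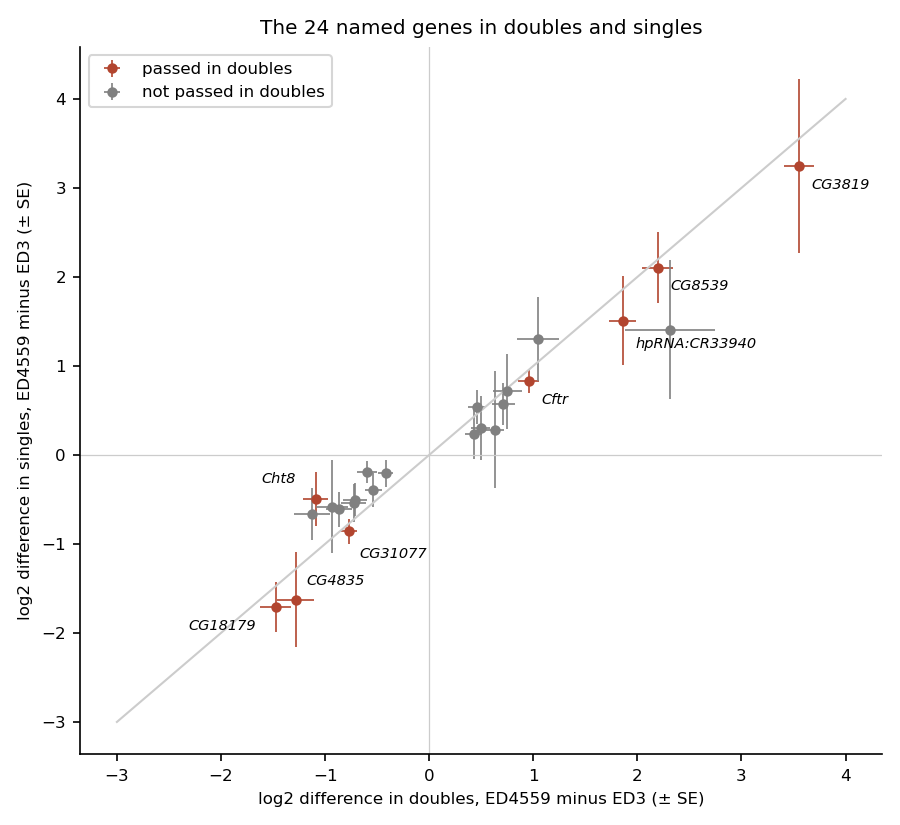
Log2 difference, ED4559 minus ED3, of the 24 genes named by rule, in doubles (x axis, 5 pairs) and in singles (y axis, 3 arrays against 3), with standard errors from limma and the line of equal differences. Genes that passed in doubles are red and labelled; all 24 lie on the same side of 0 in both.

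The arrays without either deletion show which of the segments a difference went with. For Cftr the 8 arrays with ED3 and no ED4559 lay between 7.66 and 8.34, below all 27 arrays with neither deletion, which lay between 8.56 and 9.52, and the 8 arrays with ED4559 lay among the latter at 8.71 to 9.22. The transheterozygote Df(2L)ED4559/Df(2L)ED3, which carries both, stood at 7.995, as low as the ED3 arrays. The difference in Cftr was thus a low level in ED3 carriers.

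For CG8539 the arrangement was the reverse. The 8 ED4559 arrays lay between 7.21 and 8.90, the 8 ED3 arrays between 5.54 and 6.66, and the 27 arrays with neither deletion between 5.48 and 7.22. The transheterozygote stood at 8.52, with the ED4559 arrays, and 1 array with neither deletion reached the lowest of them. CG3819 and hpRNA:CR33940 were also high in the transheterozygote (9.98 and 8.01) and in all 8 ED4559 arrays (at least 9.11 and 7.57).

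High levels of CG3819 and hpRNA:CR33940 were not limited to ED4559 carriers. The 6 wild-type arrays lay between 4.56 and 7.04 for CG3819 and between 5.88 and 6.38 for hpRNA:CR33940, but the arrays with other deletions reached 10.30 and 7.90. The high arrays without ED4559 were all replicate 2 of a single deletion: CG3819 stood at 9.70 with ED10953, 10.30 with ED1770, 10.24 with ED1612 and 9.53 with ED3. In the same arrays hpRNA:CR33940 stood at 7.77, 7.90, 7.50 and 7.67. Their array numbers are 14, 21, 22 and 23, and the ED4559 doubles with ED10953, ED1770 and ED1612 are numbers 13, 18 and 19, while the ED3 doubles numbered 16, 25 and 26 were low. The part of array number or stock in these levels was not tested further. In the 2 pairs with higher numbers, those with ED5071 and ED7665, the difference was 3.53 for CG3819 (adjusted p = 0.0291, limma) and 1.87 for hpRNA:CR33940 (0.413). That fit rests on 2 pairs, and in both the ED3 array has the higher number. Array order and deletion thus cannot be told apart there either. For CG3819, 3 of the 27 arrays with neither deletion lay at or above the lowest ED4559 array, and for hpRNA:CR33940 2 did. The 2 genes lie on arm 3L with 25 tested genes between them in Release 6 order, none of which was called. The differences of these 25 genes ran from -0.53 to 0.34. An unadjusted p under 0.05 was reached by 6 of the 25, beside 14.5% of all genes and 17.8% of those on 3L (limma).

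For the called genes with lower values in ED4559 doubles, the remaining arrays overlapped with both carrier groups. CG31077 ranged from 7.70 to 8.45 in the 8 ED4559 arrays, from 8.53 to 9.14 in the 8 ED3 arrays and from 7.80 to 8.95 in the 27 others. CG18179 ranged from 7.54 to 9.18, from 9.50 to 10.54 and from 6.74 to 10.41 in the same groups. Neither gene overlapped between the 2 carrier groups. The arrays with neither deletion reached into both ranges, and for CG18179 they covered the whole ED4559 range. Cht8 ranged from 7.97 to 8.83, from 8.26 to 9.94 and from 8.02 to 9.64 in these groups, and its carrier groups overlapped. CG4835 ranged from 5.56 to 7.21, from 6.78 to 9.26 and from 5.51 to 8.60 in the same groups, and the carrier groups overlapped. Its 6 wild-type arrays lay between 5.51 and 6.86, and arrays with other deletions between 6.28 and 8.60 with a median of 7.49. The medians of the ED4559 and ED3 arrays were 6.17 and 7.66.

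**Figure D4:**
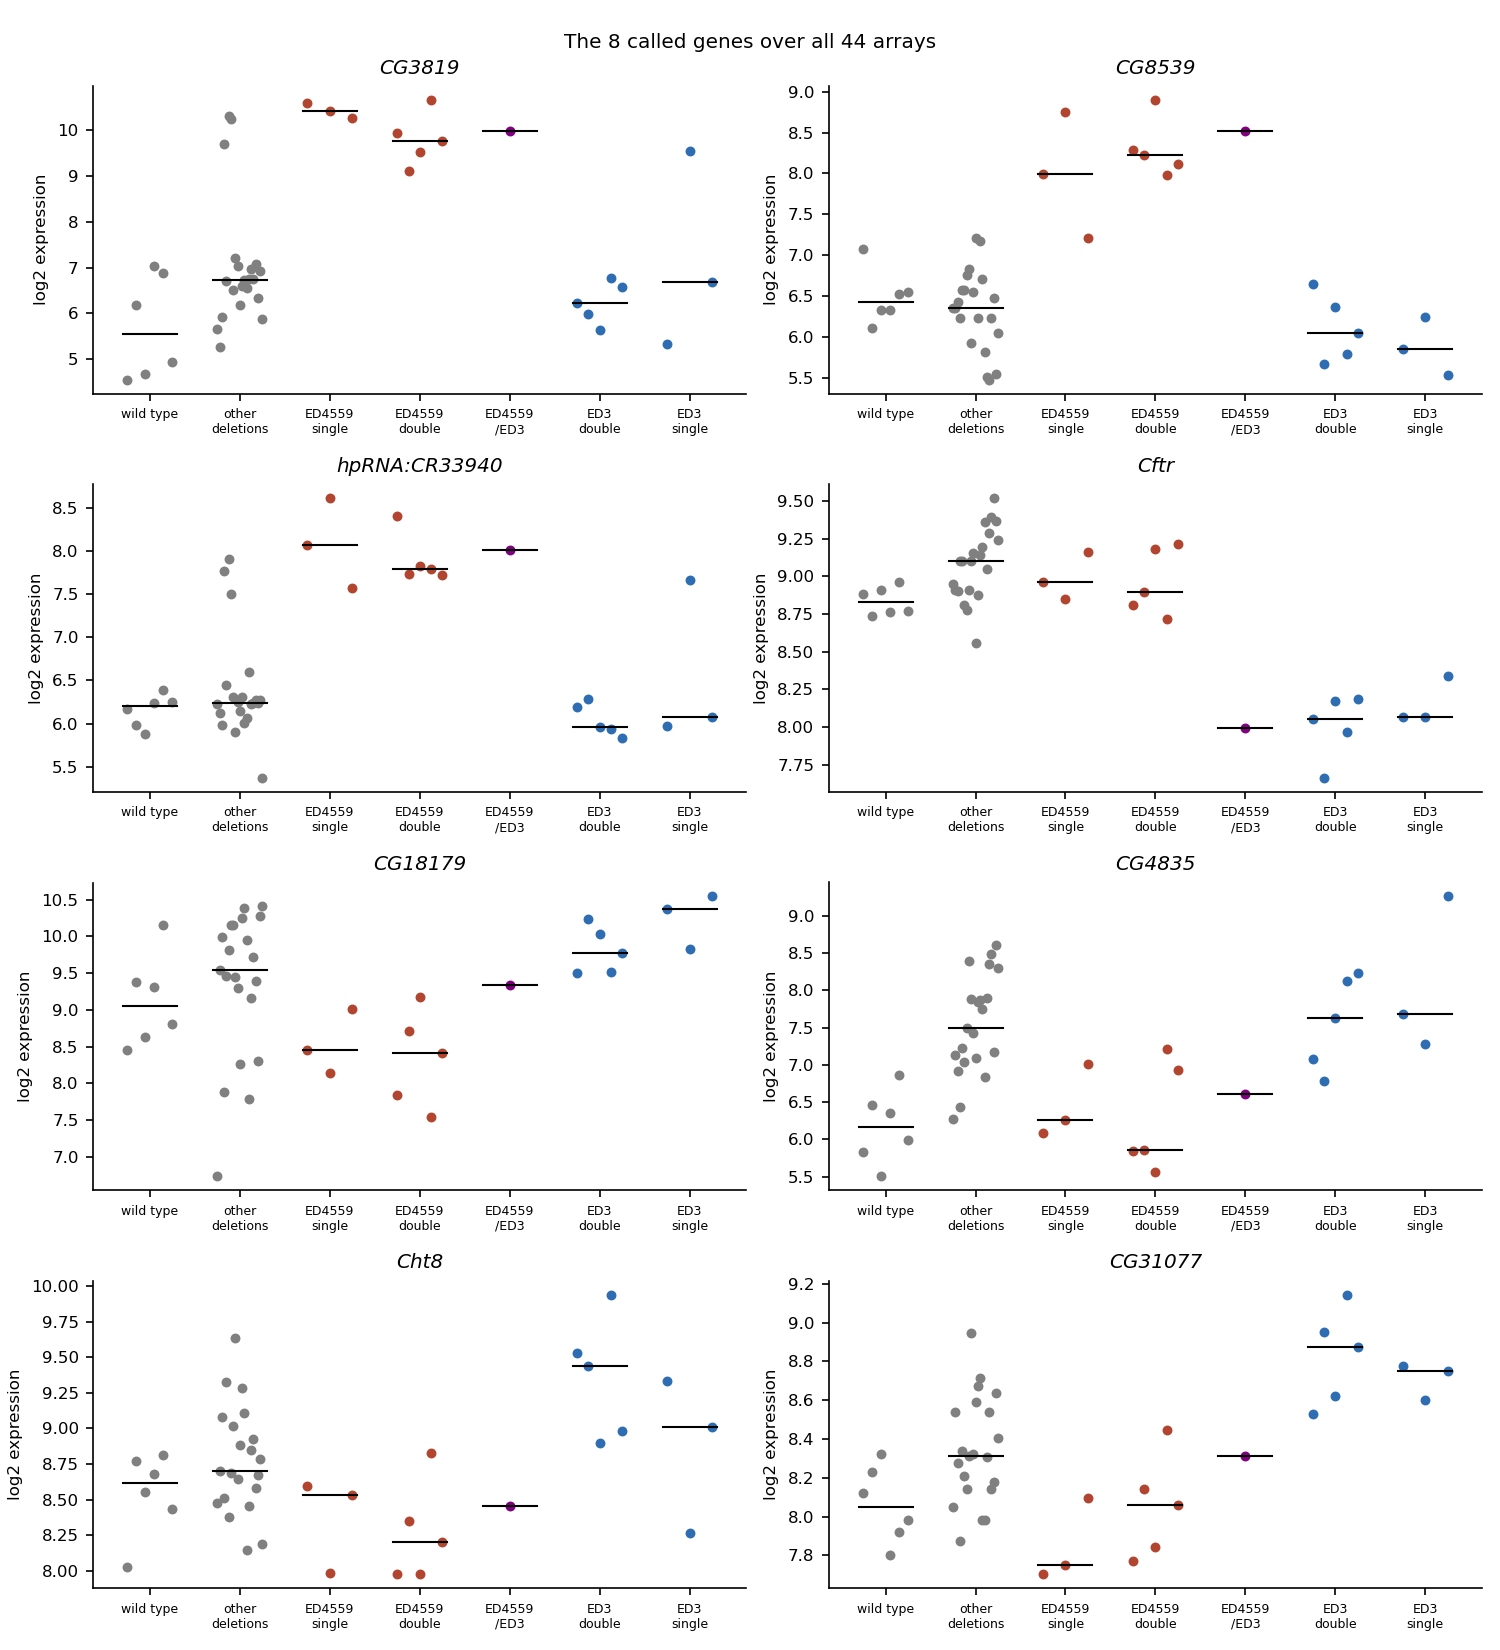
Log2 expression of the 8 called genes in all 44 arrays, 1 point per array, by genotype class, with the median of each class as a black line. ED3 carriers are low for Cftr and ED4559 carriers high for CG8539, while some arrays with other deletions are as high as ED4559 carriers for CG3819 and hpRNA:CR33940.

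The next genes by p in each direction did not pass, and all of them differed the same way in singles. Sf3b3, which encodes a subunit of the SF3b complex of the spliceosome, stood at 10.09, 10.04, 10.18, 10.18 and 10.54 in ED4559 doubles and at 9.70, 9.06, 9.60, 9.56 and 9.56 in ED3 doubles. The groups did not overlap, and the difference was 0.71 ± 0.11 (SE; adjusted p = 0.0777, limma). Sf3b3 was called in 4 of 23 alternatives, beside 7 for CG34253 and 6 for CG3906, which are given below. These 4 include the additive fits of all deletions over the 19 doubles (0.71, adjusted p = 0.0118) and over all 44 arrays (0.66, 0.0026). Of the 27 arrays with neither deletion, 11 lay at or above the lowest ED4559 array. Their median of 9.83 lay between the medians of ED4559 carriers (10.18) and ED3 carriers (9.58). The partner of Sf3b3 in SF3b, Sf3b2, is the gene of the ED4559 segment given above at -1.05. A link between the levels of these genes was not tested.

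The other genes with higher values were CG34253 (0.63, adjusted p = 0.0545, limma), the methionine sulfoxide reductase gene SelR (0.46), CG32448 (0.50), the mitochondrial ribosomal protein gene mRpS18C (0.43) and the gut protease gene Jon44E (1.05). Jon44E lies in the ED1770 segment, and in that pair, with 1 copy on both sides, it stood at 6.98 and 4.98. The large serine protease gene teq (Tequila) had a difference of 2.31 ± 0.44 (SE; adjusted p = 0.142, limma). It stood between 9.83 and 10.67 in ED4559 doubles and at 9.19, 5.92, 9.96, 6.97 and 6.98 in ED3 doubles. The ED3 arrays with ED1770, ED5071 and ED7665 were thus low, and the ED1612 pair differed by 0.71.

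Among genes with lower values, CG3906 stood at 11.11 ± 0.23 (SD, n = 5) against 11.97 ± 0.32, with a difference of -0.87 and adjusted p = 0.0545 (limma). The complexin gene cpx, which acts in synaptic vesicle release, differed by -0.54 (adjusted p = 0.0777, limma), and CG3036 by -0.60 (0.0798). The cpx gene lies in the ED5071 segment, and in that pair, with 1 copy on both sides, it stood at 9.50 and 10.15. The ion cotransporter gene NKCC differed by -0.71, the kinase gene S6KL by -0.72, toy, a Pax6 gene of the eye on chromosome 4, by -0.93 and lncRNA:CR42862 by -0.42, with adjusted p from 0.0889 to 0.0932 (limma).

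Syt7, a synaptotagmin gene of chromosome 4, had the second largest negative difference, -1.90 ± 0.39 (SE; adjusted p = 0.162, limma). It stood at 7.99, 4.89, 4.92, 8.11 and 7.94 in ED4559 doubles and between 8.11 and 9.33 in ED3 doubles, so that the ED1770 and ED1612 pairs made up most of it. ED4559 singles stood at 4.87, 6.98 and 5.06, against 7.97 to 8.63 in ED3 singles and 4.33 to 4.74 in wild type. High Syt7 was not limited to ED3 carriers, since arrays with other deletions ranged from 4.71 to 9.02, with a median of 7.64. Of the 27 arrays with neither deletion, 7 lay at or above the lowest ED3 array. In the additive fit over all 44 arrays the difference was -2.17 (adjusted p = 2.68e-05, limma). CG14957, named with it, differed by 0.60 ± 0.45 (SE; adjusted p = 0.508, limma).

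By size, 39 genes differed by at least 2-fold, 21 of them in the same direction in all 5 pairs, and 6 of the 39 were called. Of all genes tested, 1100 (14.8%) had the same sign in all 5 pairs. By arm, the calls were 5 of 1461 tested genes on 3L, 2 of 1846 on 3R, 1 of 1560 on 2R and none of 1220 on X, 1286 on 2L and 51 on chromosome 4.

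Genes of mitochondrial translation and of respiratory complex I lay higher in ED4559 doubles as groups, while no single gene of either passed. The mitochondrial ribosome makes the proteins encoded by mitochondrial DNA, several of which are core subunits of complex I, the entry point of the respiratory chain. Of the 69 tested mitochondrial ribosomal protein genes, 68 had a positive difference, beside 2422 of all 7424 genes. An unadjusted p under 0.05 in that direction was reached by 28, beside 3.80% of all genes (limma). None was lower at that level. The list median was 0.18, beside -0.08 over all genes tested.

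The mean level of the mitochondrial ribosome list was 9.74, 9.41, 9.82, 9.55 and 9.57 in ED4559 doubles and 9.52, 9.42, 9.52, 9.39 and 9.33 in ED3 doubles, in the order ED10953, ED1770, ED1612, ED5071 and ED7665. ED4559 was higher in 4 pairs, and in the ED1770 pair, whose ED4559 array has the low overall median, the difference was -0.01. Relative to the median of all genes in each pair the 5 differences were 0.28, 0.26, 0.26, 0.23 and 0.23, a mean of 0.25 ± 0.02 (SD, n = 5). With 5 pairs an exact two-sided sign-flip test cannot give a p below 0.0625, and no test of the list was made. The list level also differed with array number: wild-type arrays, numbered 1 to 6, stood at 9.61 to 9.84, and singles numbered 43 to 47 at 9.29 to 9.49. Each ED3 array has the higher number in its pair, so array order and deletion cannot be told apart for this list or for complex I.

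Within the list mRpS18C, of the small subunit, stood at 9.83, 9.41, 9.87, 9.47 and 9.38 against 9.36, 9.07, 9.37, 9.004 and 9.03. Its groups did not overlap, and its difference of 0.43 ± 0.08 (SE; adjusted p = 0.142, limma) was the largest of the list. mRpL27, of the large subunit, differed by 0.34 ± 0.09 (adjusted p = 0.223, limma), also without overlap. In singles the list mean was 0.05, and the ED4559 arrays at 9.73, 9.64 and 9.40 overlapped with the ED3 arrays at 9.60, 9.72 and 9.29.

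All 25 complex I genes tested outside the segments had a positive difference, beside 2422 of all 7424 genes. An unadjusted p under 0.05 in that direction was reached by 16, beside 3.80% of all genes (limma). Their median difference was 0.20. Array means were 12.45, 12.27, 12.42, 12.45 and 12.31 in ED4559 doubles and 12.27, 12.15, 11.97, 12.24 and 12.25 in ED3 doubles, higher with ED4559 in all 5 pairs. The ED7665 pair had the smallest difference, 0.06, and the ED1612 pair the largest, 0.44.

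ND-13B, an accessory subunit, stood at 11.77, 11.42, 11.66, 11.61 and 11.47 against 11.35, 11.12, 11.002, 11.23 and 11.32 and did not overlap (0.38 ± 0.09, SE; adjusted p = 0.185, limma). ND-B8 differed by 0.43 ± 0.12 (adjusted p = 0.230, limma) and overlapped. The 2 complex I genes inside the ED4559 segment lay at -0.45 and -0.51 in the same arrays. In singles the list mean was 0.13, and ED4559 arrays at 12.38, 12.31 and 12.32 lay above ED3 arrays at 12.28, 12.21 and 12.13.

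The other mitochondrial and ribosomal groups lay closer to the remaining genes. Of 29 genes of complexes III, IV and ATP synthase, 26 had a positive difference, beside 2422 of all 7424 genes, with a median of 0.09. An unadjusted p under 0.05 in that direction was reached by 5, beside 3.80% of all genes (limma). COX7AL2 of complex IV differed by 0.16 ± 0.05 (SE; adjusted p = 0.280, limma) without overlap, and UQCR-11 of complex III by -0.23. The 33 cytosolic ribosomal protein genes had a median of 0.02 and the 27 proteasome genes of 0.00, and none of either had an unadjusted p under 0.05. Above the all-gene median of -0.08 lay 28 of the 29, all 33 and 26 of the 27 genes of these lists. All tested genes of the mitochondrial ribosome and complex I lists did so too.

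Genes of Notch and BMP signalling lay lower in ED4559 doubles, again with none passing. Of 8 Notch pathway and target genes, 7 had a negative difference, beside 5002 of all 7424 genes tested. An unadjusted p under 0.05 in that direction was reached by 5, beside 10.7% of all genes (limma). The corepressor gene H (Hairless) differed by -0.48 ± 0.14 (SE; adjusted p = 0.239, limma) and ct, a homeodomain gene under Notch control, by -0.40 ± 0.14 (0.295). The list mean was negative in all 5 pairs, from -0.36 to -0.14, and in singles it was -0.16. Relative to the all-gene median of each pair it lay between -0.37 and -0.04 in the doubles.

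The BMP list, the pathway in which Mad carries the signal to the nucleus, had 13 genes. Of these, 11 had a negative difference, beside 5002 of all 7424 genes. In that direction 5 had an unadjusted p under 0.05 (limma), beside 10.7% of all genes. The list median was -0.23, beside -0.08 over all genes. The cofactor gene shn differed by -0.29 ± 0.09 (SE; adjusted p = 0.278, limma) and the target gene bi by -0.31 ± 0.15 (0.367). Relative to the all-gene median the list lay between -0.19 and -0.03 in the 5 pairs, and in singles its mean was -0.03.

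**Figure D5:**
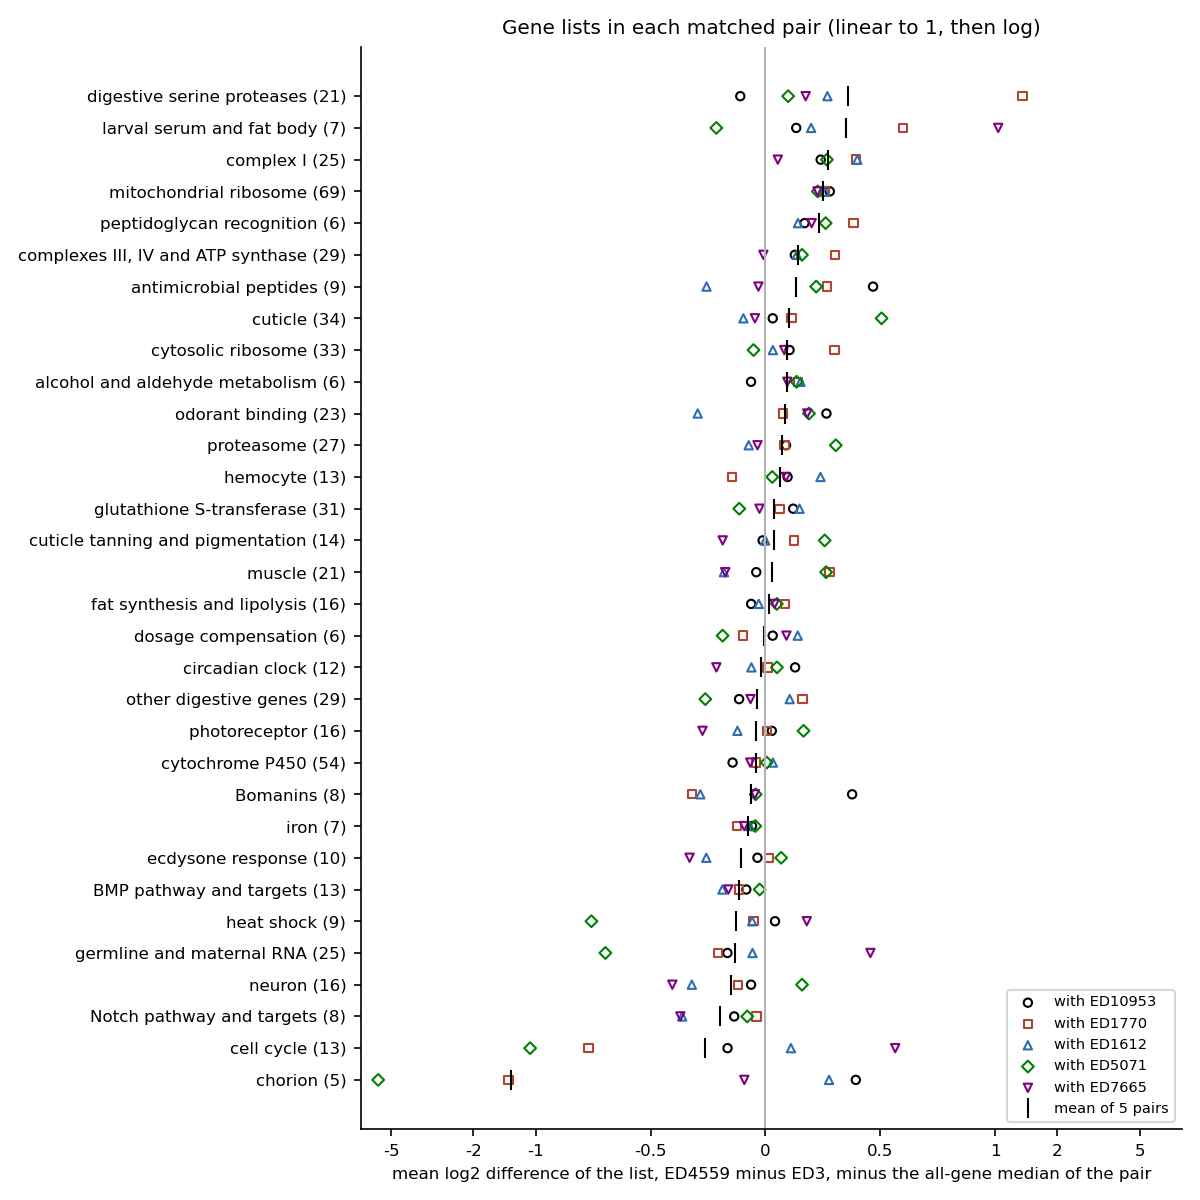
Mean log2 difference of each gene list with at least 5 tested genes (number in brackets), ED4559 minus ED3, after subtraction of the all-gene median of the pair, with 1 symbol for each partner and a bar for the mean of 5 pairs. The x axis is linear to 1 and logarithmic beyond; the mitochondrial ribosome lies between 0.23 and 0.28 in every pair, while chorion genes spread from -5.78 to 0.39.

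Of 16 genes that mark neurons, 14 were on the negative side and 4 had an unadjusted p under 0.05 (limma), and the mean over the list was -0.22. Over all genes tested 5002 of 7424 were negative and 10.7% reached that p in this direction, and relative to the all-gene median of each pair the list mean was -0.15. Their array means ran from 8.28 to 8.77 in ED4559 doubles and from 8.66 to 8.96 in ED3 doubles, and the ED5071 pair went the other way at 0.10. The synaptic gene Syn differed by -0.38 ± 0.11 (SE; adjusted p = 0.233, limma) and VAChT, the vesicular acetylcholine transporter, by -0.44 ± 0.16 (0.299).

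Of 16 photoreceptor genes 14 were likewise negative, 2 of them at an unadjusted p under 0.05, with a median of -0.09 beside -0.08 over all genes and the ED5071 pair again positive at 0.11. The 21 muscle genes had a median of -0.02. The 13 hemocyte genes had a median of -0.06, with array means from 8.38 to 9.43 against 8.33 to 9.40. Titin-like sls of muscle differed by -0.47 ± 0.12 (SE; adjusted p = 0.205, limma).

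Gut protease genes varied widely between arrays. Of 21 digestive serine protease genes 5 were higher and 2 lower at an unadjusted p under 0.05, beside 3.80% and 10.7% of all genes, and none passed (limma). The list mean was 0.29, with 1.09 in the ED1770 pair and values from -0.17 to 0.32 in the other 4. Jon99Fi stood at 8.13, 10.56, 11.19, 11.73 and 12.19 in ED4559 doubles and at 7.37, 4.92, 11.08, 9.85 and 12.19 in ED3 doubles. ED3 with ED1770 was the lowest of the 10 arrays for Jon99Fi, and also for Jon65Ai, with 6.30 against at least 8.38 in the others. Jon65Ai was higher with ED4559 in all 5 pairs, by 3.13 with ED1770 and by 0.54 to 0.91 with the other partners. The mean differences of Jon99Fi and Jon65Ai were 1.68 ± 0.71 and 1.18 ± 0.34 (SE; adjusted p = 0.332 and 0.234, limma).

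Eggshell genes differed widely between single arrays. With 1 array for each double genotype, array and genotype cannot be told apart. The 4 vitelline membrane genes, made before the chorion genes in follicle cells, had a list difference of 5.97 in the ED1770 pair and of -2.21 in the ED5071 pair. Their array means ran from 5.82 to 11.64 in ED4559 doubles and from 5.58 to 11.18 in ED3 doubles. The 5 chorion genes ran from 5.28 to 6.09 in ED4559 doubles and from 5.17 to 11.12 in ED3 doubles, with Cp15 itself at -3.61 ± 1.49 (SE; adjusted p = 0.321, limma). Their 2 highest array means, 7.71 and 11.12, were those of ED3 with ED1770 and with ED5071. The 25 germline and maternal genes ran from 7.41 to 8.23 and from 7.64 to 8.36, with 1 at an unadjusted p under 0.05.

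Genes beside the segments were compared because a deletion end can bring new sequence next to them. Of the 10 tested genes on each side of each segment none was called. Their median differences were -0.18 on the left and -0.14 on the right of ED4559 and -0.12 and -0.07 on the left and right of ED3. The genes next to the ED4559 ends, CG3558 on the left and CG15414 on the right, differed by -0.06 and -0.28. CG7631, of the astacin family of metalloproteases and the third tested gene to the right of ED3, had the largest difference there, 0.75 ± 0.14 (SE; adjusted p = 0.139, limma), with 9.32 ± 0.38 (SD, n = 5) in ED4559 doubles and 8.57 ± 0.35 in ED3 doubles. The nearest neighbour on the left of ED3, elB, differed by -0.44 ± 0.13 (adjusted p = 0.249, limma), in all 5 pairs the same way. On the right of ED3, CycE differed by -0.47 and ND-B17, of complex I, by 0.26, and on the right of ED4559 the clock gene tim, the second tested gene, differed by -0.35 ± 0.13 (adjusted p = 0.310, limma).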

How the data were processed

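Each probe set has a deposited log2 value in each array, made by the authors with RMA, per the submitters' processing notes. Version, log base and genome build were not found there, and log2 was inferred from the range of values, 2.58 to 14.66.

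Of 18952 probe sets, 13647 had 1 gene symbol, 402 several and 4903 none. Of these, 13537 were matched to Release 6 genes, which were used for names and order only, and gave 11889 genes. For 728 tested genes with several probe sets the one with the highest mean was used. The filter was a mean of at least 6 over all 44 arrays, and 7485 genes passed, 7424 of them outside both intervals. Intervals were mapped as the highest-scoring run of genes lower in carriers (offset 0.3, limit 0.7 per gene).

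Groups came from the genotype labels. The model, fitted in R 4.3.3 with limma 3.58.1, held the deletion and the partner as a block; variances were moderated along a mean trend, with Benjamini-Hochberg adjusted p under 0.05 as the call. Partners pair the arrays by genotype, and arrays with the same partner deviated together (r = 0.67, 0.41, 0.44, 0.32 and 0.46 over genes, beside highest values with another partner of 0.16, 0.13, 0.30, 0.49 and 0.31, so that ED5071 correlated better with another partner than with its own). Singles were fitted without a block. On simulated data of the same layout the paired fit recovered 46 of 100 genes changed by 0.5 and 83 of 100 changed by 1, with 10 false calls among 7424 genes; the fit of singles recovered 4 and 46 of 100, with 1 false call.

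The arrays, gene lists and named genes were chosen with earlier results of these data known. Named genes are the 12 largest rises and 12 largest falls among genes that passed and had 1 direction in all 5 pairs, filled up by smallest p, the 2 largest differences of each list, segment ends and flanks, Syt7 and CG14957; not all are printed. Gene groups that the text does not describe were computed in the same way. List means have no test. Figures were drawn with matplotlib 3.10.9 (Python 3.11.15, pandas 2.3.3, numpy 2.4.6). Alternatives are in the closing section.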

Additional observations from a re-analysis of the deposited data

Results flagged for a closer look

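Among the 5 ED4559 doubles, the level of hpRNA:CR33940 with the partner ED10953 stood apart from the others, at 8.40 against 7.72 to 7.83. Its gap to the nearest array was 0.842 of the range of the group, above Dixon's critical value of 0.71 for 5 samples. It was the 1 case among 34 groups examined, and chance flags about 1 in 20 groups. Without the ED10953 pair the call of the gene held.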

How the results depend on the processing

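The count of 8 called genes depended on the fit more than on the scaling. It was 4 without the partner block (no replicate block; 4 higher, 0 lower), 57 in an additive fit of all deletions over the 19 doubles (21 higher, 36 lower) and 45 in that fit over all 44 arrays (18 and 27). Both additive fits kept all 8, and they share the same 10 arrays and take the spread from more of them. Leaving out 1 pair at a time gave 3 to 11 calls: 3 without the ED1770 pair and 5 without the ED7665 pair, against 7, 10 and 11 without the ED10953, ED5071 and ED1612 pairs. The count was 3 without the ED1770 and ED1612 pairs, 4 without the ED1770 and ED5071 pairs (chosen after the data were seen), 4 in the 3 pairs numbered up to 26 and 3 in the 2 pairs numbered from 27. It was 13 without the filter on low values, 5 with a mean of at least 8, 16 with robust moderation and 18 at an adjusted p under 0.10. Centring gave 9 and quantile normalisation 8. CG3819 was called in all 22 alternatives, CG8539 and hpRNA:CR33940 in 21 of 22 each (not in the 2 pairs numbered from 27), Cftr, CG18179 and Cht8 in 17 of 23, CG31077 in 15 of 23 and CG4835 in 9 of 22. None of the 24 genes named by size or p, nor Syt7 or CG14957, changed sign in any alternative run; the other named genes were not run. The mean difference of the mitochondrial ribosome ran from 0.13 to 0.27 and that of complex I from 0.13 to 0.29. The interval levels were identical with intervals mapped on all 44 arrays.

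In singles a replicate block gave 0 calls, with 291 genes at an unadjusted p under 0.05 in limma; same-numbered singles deviated together with r = 0.05, 0.72 and 0.67, so the numbers were not taken as pairs. Singles gave 0 calls in every alternative run (44 to 383 genes at an unadjusted p under 0.05, limma), and so did the contrast of doubles minus singles (33 to 108); at this size the fit of singles misses most changes of 0.5. With 1 array per double genotype, the spread within a genotype is not measured.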

Other observations

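Some genes outside the groups above differed by at least 2-fold in doubles without passing, and were chosen after their values were seen. The zinc transporter gene Zip102B of chromosome 4 stood at 9.44, 9.04, 9.39, 8.44 and 8.55 in ED4559 doubles with ED10953, ED1770, ED1612, ED5071 and ED7665 and at 8.58, 7.85, 8.39, 5.28 and 5.58 in ED3 doubles (1.84 ± 0.35, SE; adjusted p = 0.142, limma). It was higher with ED4559 in all 5 pairs, and the ED3 arrays with ED5071 and ED7665 were the lowest. Obp99a, an odorant binding protein gene, differed by 1.39 ± 0.33 (SE; adjusted p = 0.185, limma) and was higher in all 5 pairs, while the 23 odorant binding genes tested had a median of -0.03. LysX, a lysozyme gene of the gut, differed by -1.76 ± 0.55 (adjusted p = 0.265, limma) and was lower in 4 of 5 pairs. The antimicrobial peptide genes went both ways, with 1.09 ± 0.44 for Drsl4 and -0.89 ± 0.38 for Mtk (adjusted p = 0.314 and 0.328, limma).

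Among 54 cytochrome P450 genes, which act in detoxification and hormone metabolism, 40 had a negative difference and 10 an unadjusted p under 0.05 in that direction, with a median of -0.11. Over all genes 5002 of 7424 were negative, 796 (10.7%) at that p, and the median was -0.08; relative to the all-gene median of each pair the list mean was -0.04. Cyp4p3 stood at 6.29, 6.20, 6.30, 6.07 and 5.88 in ED4559 doubles and at 6.99, 6.86, 7.02, 6.504 and 6.68 in ED3 doubles. Its groups did not overlap, and the difference was -0.66 ± 0.12 (SE; adjusted p = 0.133, limma). Of the ecdysone response genes Kr-h1, a transcription factor gene also under juvenile hormone control, differed by -0.62 ± 0.15 (adjusted p = 0.196, limma) without overlap.

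Neighbours of the called genes were compared in Release 6 order. Of the 16 tested genes next to the 8, none was called. CG18180 beside CG18179 was the one with the largest difference, and CG13285 beside CG4835 differed by -0.63 ± 0.15 (adjusted p = 0.185, limma) in the direction of its neighbour in all 5 pairs. CG6839 and CG32204 beside CG3819 differed by -0.48 and -0.16, against 3.55 for the gene between them.

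Several further lists had no called member. The 6 peptidoglycan recognition genes, of bacterial sensing, had a list mean of 0.16 and lay higher with ED4559 in all 5 pairs, with PGRP-SC2 at 0.41 ± 0.14 (SE; adjusted p = 0.291, limma). The 7 iron genes had a list mean below 0 in all 5 pairs and a median of -0.14. All 13 cell cycle genes had a negative difference, beside 5002 of all 7424 genes. The list mean, however, ran from -1.12 in the ED5071 pair and -1.04 in the ED1770 pair to 0.57 in the ED7665 pair. Those 2 pairs are the ones whose ED3 arrays were high for Cp15. The medians of the cuticle, circadian clock, dosage compensation, heat shock and glutathione S-transferase lists were 0.02, -0.10, -0.06, -0.29 and -0.04.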
